A study of Mus musculus with 7 samples.

Results

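The 10 transcripts described here are Mpo, Elane, Prtn3, Camp, Ngp, Ltf, Lcn2, Mmp8, S100a8 and S100a9, which neutrophils and their precursors make in bulk as granules are filled. They were chosen by name, from primary granule genes to late genes, among 53801 gene IDs in the count tables, and all 10 were found. Bone marrow mesenchymal stromal cells (BMSCs) were taken from limb bones of male C57BL/6 mice that were 8 weeks old when divided into groups. FAPi mice (4) were given an agent that blocks FAP, the membrane-bound protease fibroblast activation protein, at 500 µg/kg in 100 µl, and DPBS mice (3) received 100 µl of the vehicle, a buffered saline. Both groups were injected into the peritoneum daily for 35 days, and the sources used here do not name the inhibitor. Live cells positive for Pdgfra and Calcein-AM and negative for DAPI, CD45, Ter119 and Tie2 were sorted, 7000 per sample, so neutrophils, which carry CD45, should have been gated out in both groups.

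Neutrophils arise in the marrow through promyelocyte, myelocyte, metamyelocyte and band stages, and each stage packs a new kind of granule. Promyelocytes transcribe the genes of the primary, or azurophil, granule. Myelocytes and metamyelocytes transcribe those of the secondary, or specific, granule, and collagenase and calprotectin transcripts are abundant in the last stages. The order of these transcripts is widely used to stage granulocytes. Lcn2, S100a8 and S100a9 can also be transcribed by other cells, marrow stroma and macrophages among them.

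The libraries held 7492570 to 9226841 gene counts in the FAPi group and 9228260 to 10569690 in the DPBS group. The labelled cell type was checked against its own markers. Pdgfra, the sort antigen, averaged 402 ± 26.8 CPM in FAPi mice (SD, n = 4) and 344.5 ± 25.2 CPM in DPBS mice (SD, n = 3), where CPM is the count scaled to library size with TMM factors. Cxcl12, the chemokine that retains blood stem cells in marrow, averaged 18220 ± 2246 and 18310 ± 1961 CPM in FAPi and DPBS mice. Tek, which encodes the excluded antigen Tie2, reached at most 0.815 CPM in a FAPi library and 1.60 CPM in a DPBS library. Ptprc, which encodes the excluded CD45, had 3, 18, 6 and 2 counts in FAPi replicates 1 to 4 and 3, 50 and 44 counts in DPBS replicates 1 to 3. The 10 granule genes together took 0.0627%, 0.0489%, 0.0616% and 0.0187% of all counts in FAPi replicates 1 to 4, and 0.215%, 0.291% and 0.0659% in DPBS replicates 1 to 3. The 95% Wilson intervals were 0.0177 to 0.0197% for the lowest library and 0.288 to 0.295% for the highest, and they cover counting error only. FAPi replicate 4 was lowest and DPBS replicates 1 and 2 were far above the other 5 libraries. S100a8 and S100a9 held 70.1 to 79.4% of the counts on the 10 genes in FAPi libraries and 75.9 to 79.6% in DPBS libraries. The summed share therefore follows mainly this pair. In sorted bulk samples, fewer cells of a type and less RNA per cell cannot be told apart.

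The start regions of the granule genes are shown first, because the 3 primary granule genes and 3 of the 4 secondary granule genes held different short words there. Mmp8, grouped apart here as a later granule gene, held both words. RefSeq promoter windows on GRCm38.p6, the assembly called mm10, were found for all 10 genes, and the 250 bases before each start were searched on both strands. GAGGAAGT is a word bound by the myeloid factor PU.1, and TTGNNCAA is a loose form of the palindrome bound by C/EBP factors. Both words were picked after the windows had been read. In the lines that follow, 5′ to 3′ on the strand of the gene, matches to either word are in capitals, and bases inside any annotated exon were left out. The Prtn3 window lies inside a longer annotated model of that gene.

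Mpo, chr11:87793534-87793580, plus strand: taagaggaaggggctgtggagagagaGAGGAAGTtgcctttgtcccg
Elane, chr10:79886062-79886246, plus strand: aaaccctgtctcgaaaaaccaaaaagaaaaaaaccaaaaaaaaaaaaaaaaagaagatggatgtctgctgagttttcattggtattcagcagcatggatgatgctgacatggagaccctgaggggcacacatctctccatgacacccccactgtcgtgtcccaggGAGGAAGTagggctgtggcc
Prtn3, chr10:79879417-79879613, plus strand: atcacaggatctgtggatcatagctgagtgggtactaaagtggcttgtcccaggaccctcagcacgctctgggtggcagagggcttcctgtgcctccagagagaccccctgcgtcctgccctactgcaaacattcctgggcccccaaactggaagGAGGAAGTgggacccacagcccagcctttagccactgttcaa
Ngp, chr9:110419558-110419746, plus strand: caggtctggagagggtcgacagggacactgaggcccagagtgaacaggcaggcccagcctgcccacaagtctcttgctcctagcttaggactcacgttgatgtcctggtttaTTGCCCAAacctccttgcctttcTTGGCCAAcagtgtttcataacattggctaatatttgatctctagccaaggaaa
Ltf, chr9:111019042-111019270, plus strand: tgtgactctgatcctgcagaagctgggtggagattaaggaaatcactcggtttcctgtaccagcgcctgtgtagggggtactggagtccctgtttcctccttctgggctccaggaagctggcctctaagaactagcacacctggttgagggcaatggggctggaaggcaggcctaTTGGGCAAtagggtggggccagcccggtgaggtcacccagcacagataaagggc
Mmp8, chr9:7558179-7558428, plus strand: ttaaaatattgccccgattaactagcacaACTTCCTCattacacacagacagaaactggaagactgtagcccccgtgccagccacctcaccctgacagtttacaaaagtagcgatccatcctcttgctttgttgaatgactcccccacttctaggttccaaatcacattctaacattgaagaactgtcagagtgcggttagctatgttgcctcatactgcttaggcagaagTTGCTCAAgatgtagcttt

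GAGGAAGT stood in the windows of all 3 primary granule genes, in those of Mmp8 and S100a8 on the other strand, and in none of the 4 secondary granule genes. Of 32851 windows in the whole promoter table, 2.44% held it. It began 224, 85 and 95 bases before the RefSeq starts of Mpo, Elane and Prtn3. The RefSeq starts of Mpo, Elane, Prtn3, Ngp and Ltf lie inside the gene spans given below. With exon bases left out, the printed bases of these genes stop short of the starts, and only the Mmp8 line runs up to its start. TTGNNCAA stood in the windows of Ngp, Ltf, Lcn2 (inside an annotated exon, not printed) and Mmp8, in none of the primary granule genes, and in 5.65% of all windows. Camp and S100a9 held neither word in these windows. The words were taken from these same windows and most windows hold neither, so their presence or absence tests no difference between stages. The matches are descriptions of sequence and say nothing of binding in these cells.

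Granule transcripts were scarcer by estimate in FAPi mice for 9 of the 10 genes, but no single gene passed the test, and the 3 DPBS libraries differed from each other by 3.63-fold (S100a9) to 49.4-fold (Mpo). The lowest estimates were those of Mmp8 and Lcn2, and Prtn3 alone had a higher one. In edgeR's quasi-likelihood test with Benjamini-Hochberg adjustment over all 12930 genes tested, which all 10 genes entered, 0 of 10 passed, and 0% of all genes passed. At an unadjusted p under 0.05 there were 7 of the 10, all with a lower estimate, namely the 4 secondary granule genes, Mmp8, S100a8 and S100a9. The background was 8.14% of all genes, 3.69% with a lower and 4.45% with a higher estimate. The groups were separate with FAPi lower for 4 of the 10, against 3.95% of all genes, and with FAPi higher for 0 of the 10, against 3.39%. DESeq2 called 3 of the 10 as lower, against 0.379% of all genes, and 0 as higher, against 0.626%. Without DPBS replicate 2, DESeq2 called 0 of the 8 that had an adjusted p, Mpo and Mmp8 having none, against 0.371% of all genes as lower and 0.437% as higher. A log2 difference, FAPi minus DPBS, of -1 or lower was found for 9 of the 10 and for 10.2% of all genes. Lower estimates of any size were found for 49.4% of all genes, and the median log2 difference was -1.67 over the 10 and 0.01 over all genes. Mmp8 had under 10 counts in every FAPi library and entered the test through the DPBS group alone, so it had to differ. Over the other 9 genes, 6 were at an unadjusted p under 0.05, 3 had separate groups, DESeq2 called 2, 8 had a lower estimate and the median was -1.59. The 10 genes share cells and libraries, so they are not 10 separate observations.

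Mpo (ENSMUSG00000009350.13, chromosome 11, 87793581 to 87804413, mm10), the myeloperoxidase of the primary granule, was near the detection limit in most libraries. It had 23, 4, 3 and 6 counts in FAPi replicates 1 to 4, against 104, 40 and 2 counts in DPBS replicates 1 to 3. Both groups held high and low libraries and they overlapped, with the lowest value of all in DPBS replicate 3. The log2 difference was -1.98 ± 1.23 (SE of the fit, as below; adjusted p = 0.716, edgeR). Without DPBS replicate 1 the difference was -0.93. An antisense gene, Gm11505, overlaps Mpo and was listed at 0 in all 7 libraries.

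Elane (ENSMUSG00000020125.7, chromosome 10, 79886247 to 79888215) encodes neutrophil elastase, the serine protease whose release remodels matrix and whose mutation causes neutropenia in people. It had 6.65, 1.29, 4.78 and 0.977 CPM in FAPi replicates 1 to 4, against 16.3, 13.2 and 0.754 CPM in DPBS replicates 1 to 3. As for Mpo, DPBS replicates 1 and 2 were highest and DPBS replicate 3 lowest, so the groups overlapped. Between groups the log2 difference was -1.55 ± 1.05 (adjusted p = 0.742, edgeR).

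Prtn3 (ENSMUSG00000057729.12, chromosome 10, 79874476 to 79883174) encodes proteinase 3 and ends 3.07 kb before Elane on the same strand. It was the 1 gene of the 10 with a higher estimate in FAPi mice. It had 18.1, 2.97, 18.3 and 1.54 CPM in FAPi replicates 1 to 4, against 9.05, 7.499 and 1.51 CPM in DPBS replicates 1 to 3. FAPi replicates 1 and 3 were above every DPBS library, while FAPi replicates 2 and 4 were below DPBS replicates 1 and 2. For Prtn3 the log2 difference was 0.76 ± 0.99 (adjusted p = 0.897, edgeR), and it was 0.34 without FAPi replicate 1 and 0.32 without FAPi replicate 3. Per kilobase of exon, the Prtn3 to Elane ratio was 1.54, 1.31, 2.18 and 0.893 in FAPi replicates 1 to 4 and 0.315, 0.323 and 1.14 in DPBS replicates 1 to 3. Elane thus exceeded Prtn3 in DPBS replicates 1 and 2, the libraries richest in granule transcripts, and slightly in FAPi replicate 4, and Prtn3 exceeded Elane in the other 4. The ratios in FAPi replicates 2 and 4 and DPBS replicate 3 rest on 10, 7 and 8 Elane counts. Plppr3 overlaps exons of Prtn3 on the other strand and had 351, 174, 271 and 264 counts in FAPi replicates 1 to 4 and 417, 47 and 409 in DPBS replicates 1 to 3. Its part in the Prtn3 counts was not tested.

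**Figure D1:**
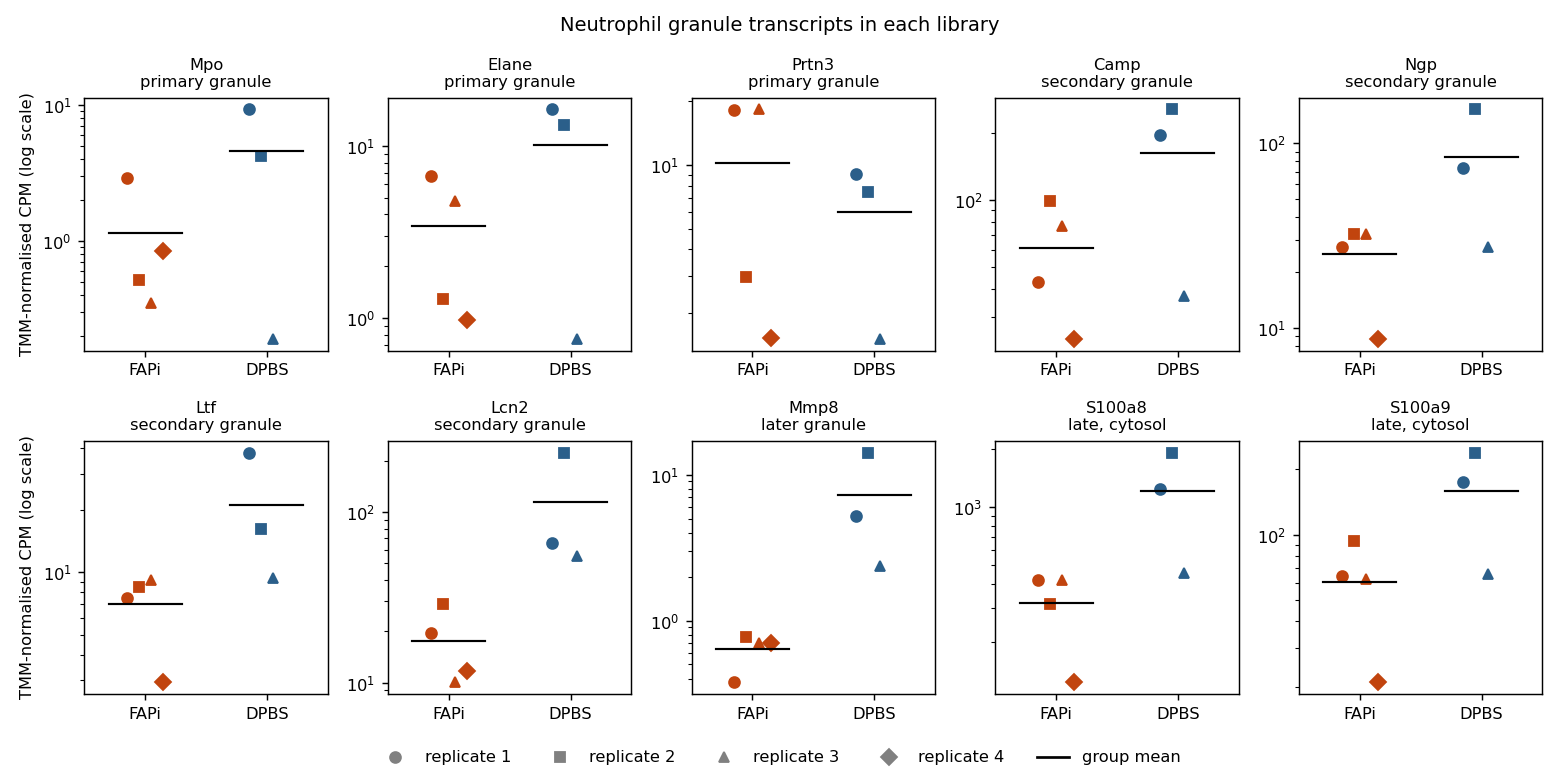
TMM-normalised CPM of the 10 transcripts on log axes, with FAPi libraries (orange, 4) left of DPBS libraries (blue, 3), a symbol per replicate number and a bar at each group mean. DPBS replicate 3 (blue triangle) lies far below the other DPBS libraries for Mpo and Elane, and Lcn2, Mmp8, S100a8 and Ltf show no overlap between groups.

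Of the secondary granule transcripts, Camp, Ngp and Lcn2 had higher levels per kilobase than the primary granule ones in the mean over libraries, and all 4 had lower estimates in FAPi mice. Camp, Ngp and Ltf lie in that order on chromosome 9, and Camp and Ngp both encode proteins with a cathelin domain. Camp (ENSMUSG00000038357.10, chromosome 9, 109847379 to 109849617), the gene of the antimicrobial peptide cathelicidin, had 43.2, 99.0, 76.9 and 23.9 CPM in FAPi replicates 1 to 4. It had 194.5, 254 and 37.2 CPM in DPBS replicates 1 to 3. DPBS replicate 3 lay inside the FAPi range. For Camp the log2 difference was -1.41 ± 0.61 (adjusted p = 0.582, edgeR). Ngp (ENSMUSG00000032484.8, chromosome 9, 110419747 to 110423012), neutrophilic granule protein, had 27.5, 32.1, 32.3 and 8.65 CPM in FAPi replicates 1 to 4, against 73.0, 152.6 and 27.4 CPM in DPBS replicates 1 to 3. DPBS replicate 3 again lay among the FAPi libraries, and the log2 difference was -1.75 ± 0.59 (adjusted p = 0.501, edgeR). Without DPBS replicate 2 it was -0.998, and that of Camp was -0.93.

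Ltf (ENSMUSG00000032496.7, chromosome 9, 111019271 to 111042767) encodes lactoferrin, the iron-binding protein of the secondary granule. It had 7.53, 8.53, 9.20 and 2.93 CPM in FAPi replicates 1 to 4, against 38.1, 16.3 and 9.42 CPM in DPBS replicates 1 to 3. The groups did not overlap, but the gap between FAPi replicate 3 and DPBS replicate 3 was smaller than the spread within either group. Ltf was highest in DPBS replicate 1, as Mpo and Elane were, and not in DPBS replicate 2 like the other secondary granule genes. The log2 difference was -1.59 ± 0.64 (adjusted p = 0.564, edgeR), and -0.87 without DPBS replicate 1.

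Lcn2 (ENSMUSG00000026822.14, chromosome 2, 32384633 to 32388252) encodes lipocalin 2, which withholds iron from bacteria by binding their siderophores. It had 19.6, 28.9, 10.02 and 11.7 CPM in FAPi replicates 1 to 4, against 65.6, 223 and 54.9 CPM in DPBS replicates 1 to 3. All 4 FAPi libraries lay below all 3 DPBS libraries, and the lowest DPBS value was well above the highest FAPi value. The log2 difference was -2.70 ± 0.57, with an unadjusted p of 6.19e-04 and an adjusted p of 0.400 (edgeR). DESeq2, which uses another dispersion estimate, called it (adjusted p = 0.00231), and not without DPBS replicate 2 (adjusted p = 0.149). Over all 16 alternatives the adjusted p of Lcn2 ran from 0.00231 to 0.870, and without DPBS replicate 2 the edgeR difference was -1.78. Lcn2 was 18.0 times the per-kilobase level of Ltf in DPBS replicate 2 and 1.43 to 7.67 times in the other 6 libraries.

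Mmp8 (ENSMUSG00000005800.3, chromosome 9, 7558456 to 7568485), the neutrophil collagenase gene, had 3, 6, 6 and 5 counts in FAPi replicates 1 to 4, against 58, 134 and 25 counts in DPBS replicates 1 to 3. The FAPi counts, 0.377 to 0.775 CPM, stand at or a little above a floor of 3 counts, and the groups were separate. DPBS replicate 3, which was low for Mpo and Elane, still held 2.36 CPM. Since its FAPi counts were all under the minimum of 10, Mmp8 was tested only because the DPBS libraries held enough, and its separation is a description. Its log2 difference was -3.48 ± 0.97 (adjusted p = 0.482, edgeR), and -2.54 without DPBS replicate 2. DESeq2 called Mmp8 (adjusted p = 0.0429) and gave it no adjusted p without DPBS replicate 2, and over all alternatives its adjusted p ran from 0.0429 to 0.870.

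The pair S100a8 (ENSMUSG00000056054.9, chromosome 3, 90668978 to 90670035) and S100a9 (ENSMUSG00000056071.12, chromosome 3, 90692632 to 90695721) encodes the subunits of calprotectin, a calcium- and zinc-binding protein of the neutrophil cytosol. S100a8 had 419.7, 315, 419.7 and 123 CPM in FAPi replicates 1 to 4, against 1241, 1914 and 457 CPM in DPBS replicates 1 to 3. The groups did not overlap, although DPBS replicate 3 was close to FAPi replicates 1 and 3. The log2 difference was -1.91 ± 0.49 (adjusted p = 0.462, edgeR), and DESeq2 called it (adjusted p = 0.0390, and 0.363 without DPBS replicate 2, within 0.0390 to 0.873 over all alternatives). S100a9 had 64.7, 93.3, 62.8 and 20.9 CPM in FAPi replicates 1 to 4, against 174.5, 239 and 65.8 CPM in DPBS replicates 1 to 3. FAPi replicate 2 exceeded DPBS replicate 3, so the groups overlapped. The S100a9 log2 difference was -1.40 ± 0.52 (adjusted p = 0.524, edgeR). Per kilobase, S100a8 exceeded S100a9 by 2.54 to 5.03 times in FAPi libraries and by 5.23 to 6.03 times in DPBS libraries, with the 2.54 in FAPi replicate 2.

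**Figure D2:**
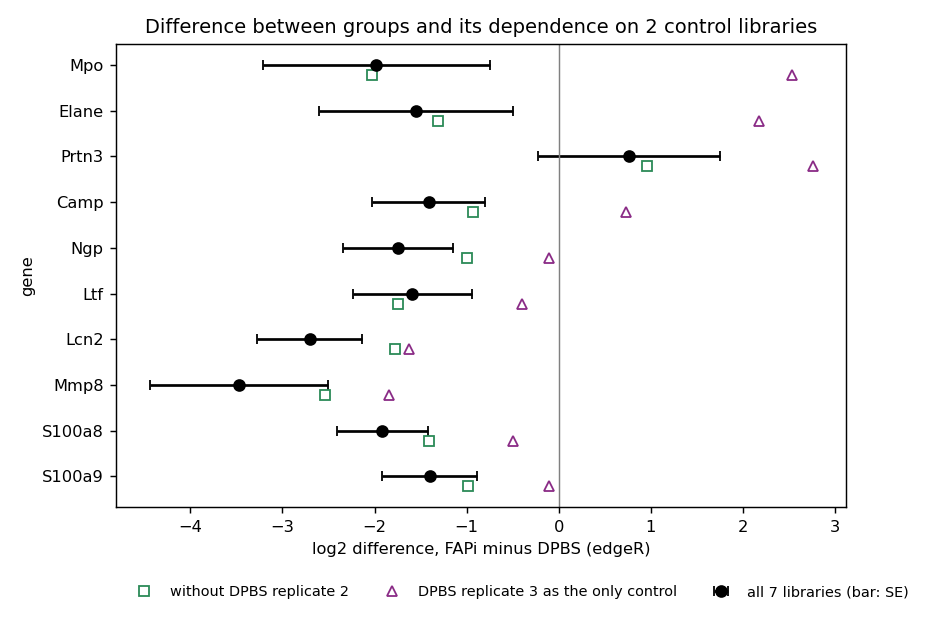
Log2 difference, FAPi minus DPBS, of each gene with all 7 libraries (black, bar: SE of the edgeR fit), without DPBS replicate 2 (squares) and with DPBS replicate 3 as the only control (triangles). With DPBS replicate 3 alone the primary granule genes and Camp stand above 0, and Lcn2 and Mmp8 at -1.62 and -1.84.

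The estimates differed with the control libraries used. DPBS replicates 1 and 2 held the highest and second highest value of 9 of the 10 genes, the exception being Prtn3. DPBS replicate 2 was highest for 6 genes (Camp, Ngp, Lcn2, Mmp8, S100a8 and S100a9), where it was the highest library for 17.5% of all genes tested. DPBS replicate 1 was highest for Mpo, Elane and Ltf, against 11.1% of all genes. At the low end, FAPi replicate 4 was lowest for Camp, Ngp, Ltf, S100a8 and S100a9, against 16.1% of all genes. DPBS replicate 3 was lowest for the 3 primary granule genes. For this count, and for the 9 of the 10 above, the share over all genes was not computed. With DPBS replicate 3 as the only control, a comparison added after the data were seen, the estimates were 2.53 for Mpo, 2.17 for Elane, 2.76 for Prtn3 and 0.73 for Camp. Those of the other 6 genes stayed below 0, from -0.10 for S100a9 to -1.84 for Mmp8, and no gene of the 10 passed that test, which has 1 control library and assumes that it varies like the FAPi libraries.

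**Figure D3:**
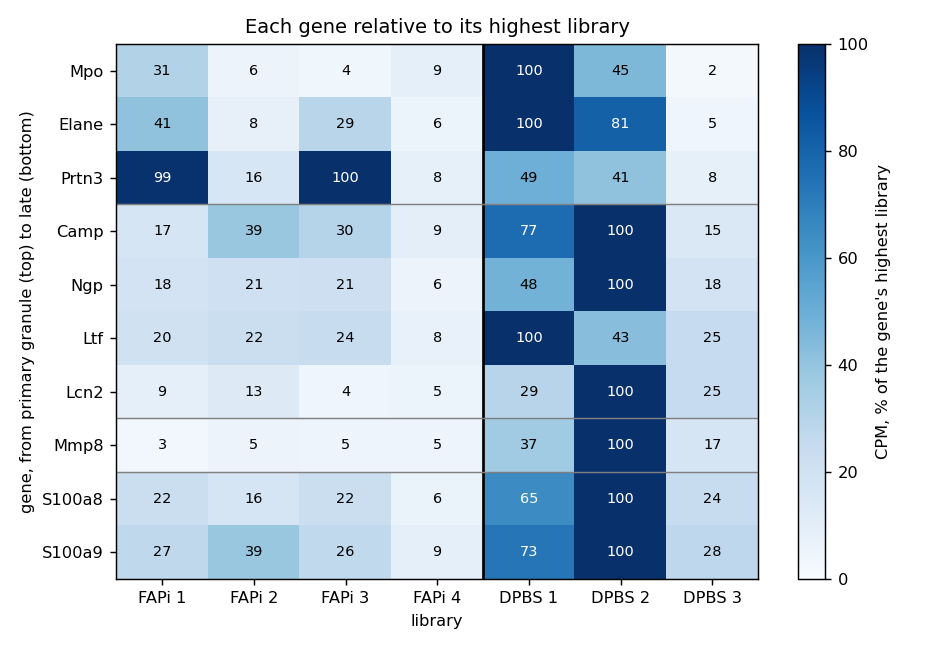
CPM of each gene as a percentage of its own highest library, with FAPi libraries left of DPBS libraries and genes ordered from primary granule (top) to late (bottom). DPBS replicate 3 goes from 2.02% of the highest library at Mpo to 27.5% at S100a9, and FAPi replicates 1 and 3 are darkest at Prtn3.

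Libraries also differed in the balance of stages. The 3 primary granule genes held 4.53% (95% Wilson interval 3.98 to 5.15), 0.821% (0.596 to 1.13), 3.69% (3.22 to 4.22) and 1.72% (1.16 to 2.54) of the counts on the 10 genes in FAPi replicates 1 to 4. They held 1.90% (1.72 to 2.10), 0.878% (0.774 to 0.997) and 0.373% (0.255 to 0.546) in DPBS replicates 1 to 3. The groups overlapped, and FAPi replicates 1 and 3, with their high Prtn3, had the highest shares. Per kilobase of exon, primary granule genes made up 1.28 ± 0.822% of the summed level in FAPi mice (SD, n = 4) and 0.558 ± 0.397% in DPBS mice (SD, n = 3). Secondary granule genes made up 15.9 ± 4.30% and 13.1 ± 2.03%, and the calprotectin pair 82.7 ± 3.56% and 86.2 ± 2.35%, in FAPi and DPBS mice. Each of these 3 shares overlapped between the groups. The Mmp8 to Mpo ratio per kilobase, a late over an early transcript, was 0.184, 2.12, 2.82 and 1.18 in FAPi replicates 1 to 4 and 0.788, 4.73 and 17.65 in DPBS replicates 1 to 3, and rests on 2 to 6 counts of 1 or both genes in every FAPi library and in DPBS replicate 3.

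**Figure D4:**
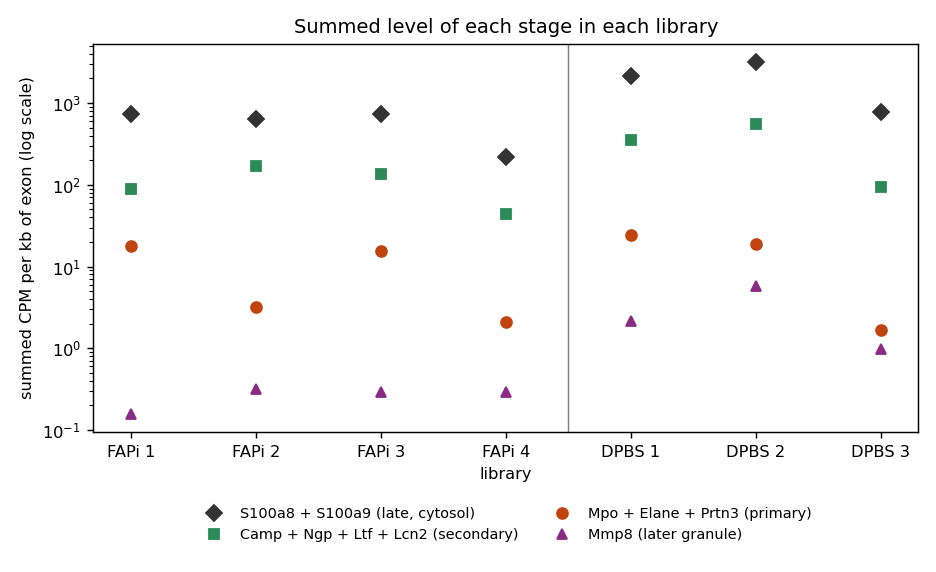
Summed level of each stage, in CPM per kilobase of exon on a log axis, in each FAPi library (left) and DPBS library (right). Calprotectin transcripts are highest in every library, and the primary granule sum of 1.69 in DPBS replicate 3 is the lowest of the 7.

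Over the whole set, the order of levels per kilobase, as the mean over the 7 libraries, ran from S100a8 (1006 CPM per kb) and S100a9 (197) through Camp (137), Ngp (41.3) and Lcn2 (22.5) to Elane (6.38), Prtn3 (4.86), Ltf (3.81), Mmp8 (1.43) and Mpo (0.764). The first 4 stood in this same order in all 7 libraries. The other 6 changed places between libraries, so that Prtn3 stood next after Ngp in FAPi replicates 1 and 3, and Mmp8 stood above Prtn3 and Mpo in DPBS replicates 2 and 3. The ranges of Elane, Prtn3 and Ltf over the libraries overlapped.

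Other genes of the granulocyte program were measured beside the 10. Of 32 further granule and late neutrophil genes in 4 lists, 16 had enough counts to be tested. Of these, 0 passed in edgeR, 15 had a lower and 1 a higher estimate, and the median log2 difference was -1.24. Lower estimates were found for 49.4% of all genes tested. The listed genes share cells and libraries with each other and with the 10, so they are not separate observations. Some, such as Itgam below, were high in 1 DPBS library alone. In the primary granule list, 1 of 4 genes was tested and had a lower estimate. Ctsg, the cathepsin G gene, had 1, 4, 0 and 1 counts in FAPi replicates 1 to 4, against 1, 90 and 0 counts in DPBS replicates 1 to 3. It was thus near 0 in DPBS replicate 1, where Mpo and Elane were highest. Ms4a3, a marker of granulocyte and monocyte progenitors, was also highest in DPBS replicate 2, at 7.08 CPM, and reached 0.179 to 1.03 CPM in the other 6 libraries. Prss57 of the same list, named after its values were seen, was instead highest in DPBS replicate 1, as Mpo and Elane were. It had 1, 0, 3 and 1 counts in FAPi replicates 1 to 4, against 38, 1 and 1 counts in DPBS replicates 1 to 3. Serpinb1a, an inhibitor of elastase and proteinase 3, had 33.1, 6.20, 6.99 and 14.5 CPM in FAPi replicates 1 to 4, against 8.96, 115 and 3.96 CPM in DPBS replicates 1 to 3. Of 8 further secondary granule genes 4 were tested, all with lower estimates (median -0.48), led by genes that other cells also use. Cybb, the oxidase subunit gp91phox, had 410, 242, 375.5 and 310.3 CPM in FAPi replicates 1 to 4, against 186, 508 and 799.6 CPM in DPBS replicates 1 to 3. Unlike the granule genes, it was lowest in DPBS replicate 1 and highest in DPBS replicate 3. Fcnb and Chil3, named after their values were seen, were highest in DPBS replicates 1 and 2. Fcnb, a ficolin gene, had 6.27 and 4.54 CPM in DPBS replicates 1 and 2 and at most 0.502 elsewhere. Chil3, a chitinase-like gene, had 3.77 to 9.54 CPM in FAPi libraries and 15.1, 52.4 and 3.68 CPM in DPBS replicates 1 to 3. Cd177 and Ltb4r1 of the same list, also named after their values were seen, were not high in DPBS replicate 1. Cd177 had 0, 23, 1 and 3 counts in FAPi replicates 1 to 4, against 3, 36 and 10 in DPBS replicates 1 to 3. Ltb4r1 had 0, 42 and 1 counts in DPBS replicates 1 to 3 and 0 in every FAPi library.

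Tertiary granule genes, 5 of 9 tested, all had lower estimates (median -1.05), and of 11 late genes 5 of the 6 tested did (median -1.48). Itgam, the integrin chain CD11b, had 4.47 to 5.71 CPM in FAPi libraries and 64.6, 3.49 and 3.96 CPM in DPBS replicates 1 to 3, so it was high in replicate 1 alone. Pglyrp1, a peptidoglycan recognition protein gene, had 0.879, 18.2, 1.40 and 1.12 CPM in FAPi replicates 1 to 4, against 18.2, 27.8 and 1.98 CPM in DPBS replicates 1 to 3. Retnlg, a resistin-like gene, had 10.5, 5.43, 8.04 and 2.23 CPM in FAPi replicates 1 to 4, against 14.9, 15.2 and 10.8 CPM in DPBS replicates 1 to 3. Its groups were separate, with a log2 difference of -1.05 ± 0.66 (adjusted p = 0.717, edgeR). Cxcr2, the chemokine receptor by which mature neutrophils leave the marrow, was highest in DPBS replicate 3, at 34.9 CPM, and had 0.775 to 8.74 CPM in the other 6 libraries. Mxd1 had 5.36 to 19.0 CPM in FAPi and 2.96 to 12.7 CPM in DPBS libraries, and Msrb1 had 4.65 to 17.9 CPM in FAPi and 4.12 to 26.3 CPM in DPBS libraries. Ly6g, which encodes a surface antigen of maturing neutrophils, and Itgb2l were listed at 0 in all 7 libraries (both named after their values were seen), which allows up to 0.419 CPM in the shallowest.

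Of 8 transcription factors of the lineage 7 were tested, 3 with a higher and 4 with a lower estimate and 0 called (median -0.02). Cebpe, which drives secondary granule genes, had 5, 9, 33 and 1 counts in FAPi replicates 1 to 4, against 11, 111 and 4 counts in DPBS replicates 1 to 3. DPBS replicate 2 was highest and the groups overlapped (log2 difference -1.58 ± 1.33, adjusted p = 0.808, edgeR). Cebpa and Runx1, which marrow stromal cells also transcribe, had 137 ± 24.1 and 911 ± 203 CPM in FAPi mice and 157 ± 34.0 and 669 ± 84.4 CPM in DPBS mice. Gfi1, a repressor needed for granulocytes and also named after its values were seen, was listed at 0 in every library.

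Markers of other blood cells varied with the granule genes in part. All 8 erythroid genes analysed here had a lower estimate, against 49.4% of all genes tested, and 0 of them were called. Their summed level was 1622 to 3281 CPM in FAPi libraries and 1862 to 15890 CPM in DPBS libraries. Hbb-bs, an adult β-globin gene that may share reads with a near-identical copy, had 652, 487, 717 and 340 CPM in FAPi replicates 1 to 4, against 1500, 3711 and 388 CPM in DPBS replicates 1 to 3. DPBS replicates 2 and 1 were thus first and second in Hbb-bs as in 6 of the granule genes, and for this gene DPBS replicate 3 lay in the FAPi range and FAPi replicate 4 was lowest. None of the 8 erythroid genes was at 0 in all libraries, and their part in the granule result was not tested.

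Of 7 common leukocyte genes 6 had a lower estimate, against 49.4% of all genes tested, and 0 were called. Their summed level was 51.4 to 74.9 CPM in FAPi and 85.7 to 181 CPM in DPBS libraries, without overlap. That separation rested on Fcer1g: without it the other 6 genes summed to 31.4, 19.0, 22.5 and 18.7 CPM in FAPi replicates 1 to 4, against 26.8, 111.6 and 40.5 CPM in DPBS replicates 1 to 3, which overlap. Cd52, a leukocyte surface protein gene, had 3.64, 7.75, 8.97 and 2.51 CPM in FAPi replicates 1 to 4, against 13.5, 44.0 and 15.2 CPM in DPBS replicates 1 to 3. Its log2 difference was -2.08 ± 0.67 (adjusted p = 0.490, edgeR). Fcer1g, an adaptor of Fc receptors, had 32.4 to 55.8 CPM in FAPi and 58.9 to 70.9 CPM in DPBS libraries. Tyrobp, an adaptor of myeloid receptors, had 3.10 to 9.29 CPM in FAPi and 5.38 to 26.0 CPM in DPBS libraries. The CD45 gene Ptprc stood in another order. DPBS replicate 1, with 0.215% of its counts on granule genes, had 3 Ptprc counts, while DPBS replicate 3, with 0.0659%, had 44.

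Monocyte and macrophage markers summed to 97.1 to 159 CPM in FAPi and 152 to 394 CPM in DPBS libraries, and 3 of the 4 tested had a lower estimate. Most of the sum in every library was Lyz2, the lysozyme gene of granulocytes and macrophages, so the sum is not particular to macrophages. Lyz2 had 95.03, 93.05, 99.0 and 141 CPM in FAPi replicates 1 to 4, against 172, 353 and 135 CPM in DPBS replicates 1 to 3. Mcpt8, a basophil protease gene, had 102 CPM in FAPi replicate 1 and 252 CPM in DPBS replicate 2, and 11.03 to 15.4 CPM in the other 5 libraries. The B-lineage gene Vpreb3 was likewise high in FAPi replicate 1, at 134 CPM, and in DPBS replicate 2, at 137 CPM, with 9.71 to 20.4 CPM elsewhere. FAPi replicate 1 was therefore as rich in this marker as DPBS replicate 2 while its S100a8 was 420 CPM. Of 8 B-lineage genes tested 5 had a lower and 3 a higher estimate, with sums of 764 to 1250 CPM in FAPi and 628 to 1211 CPM in DPBS libraries. Most of these sums was Ebf1, a factor that marrow stroma also transcribes. The other 8 listed B-lineage genes summed to 388, 43.0, 50.9 and 31.0 CPM in FAPi replicates 1 to 4, against 40.04, 464.5 and 28.8 CPM in DPBS replicates 1 to 3, so they were high in FAPi replicate 1 and DPBS replicate 2. The eosinophil and mast cell list, with 1 lower and 1 higher of 2 tested, summed to 23.8 to 122 CPM and 22.9 to 280.5 CPM in FAPi and DPBS libraries. Megakaryocyte and endothelial lists, 4 genes tested in each, were split 2 and 2, and summed to 85.0 to 174 and 21.3 to 358 CPM in FAPi libraries and to 97.02 to 451 and 19.1 to 59.8 CPM in DPBS libraries. The 358 CPM was FAPi replicate 1, where Kdr, a vascular growth factor receptor gene, had 340.3 CPM against 3.17 to 15.5 CPM in the other 6 libraries. T and NK genes were near 0, with 4 of 6 at 0 in all libraries. Stromal markers summed to 21770 to 29050 CPM in FAPi and 23070 to 26810 CPM in DPBS libraries, with 4 of 8 higher and 4 lower. The part of each list in the granule differences was not tested.

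**Figure D5:**
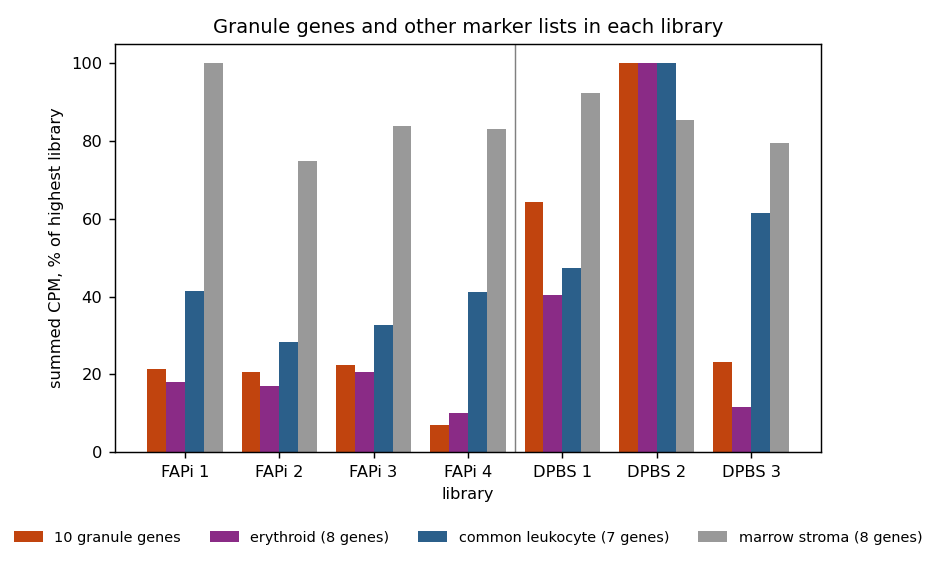
Summed CPM of the granule genes and of erythroid, common leukocyte and marrow stroma markers, each as a percentage of its highest library, with FAPi libraries left of DPBS libraries. The first 3 sets peak in DPBS replicate 2, and the stromal set varies little. DPBS replicate 3 is second highest in the leukocyte sum, of which Fcer1g is 70.9 of 111 CPM. Its granule sum of 657 CPM is a little above the highest FAPi sum of 635 CPM, and its erythroid sum lies in the FAPi range. S100a8 and S100a9 make up most of the granule sum.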

How the data were processed

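Per the labels' protocols, total RNA of 7000 sorted cells per sample was made into libraries by a modified Smart-seq2 method and read as paired 150-base reads. The submitters' processing notes name STAR, HTSeq and the build mm10. For the annotation and the strand setting, the sources used here give nothing. The authors deposited whole-number counts per gene, and CPM values that differ from the count over the library total by at most 4.55e-05 CPM. Lines at the end of 6 CPM tables are repeated, and repeats were dropped. The deposited count tables carry a tag for duplicate removal that no label describes; such a step would compress the most abundant transcripts. Of 53801 IDs, 53706 matched GENCODE M21, the source of symbols, mm10 coordinates and merged exon lengths.

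Counts were fitted in edgeR 4.0.16 (R 4.3.3) over all genes kept by filterByExpr (minimum count 10), 12930 genes, with TMM factors and robust quasi-likelihood tests at an adjusted p of 0.05. The SE is the absolute log2 difference over the square root of F. Scripts were tested on simulated data. The design gives 4 and 3 mice, as many as the samples, without saying that each sample is 1 mouse, so p-values measure only the spread between these samples. A floor of 3 counts equals 0.269 to 0.419 CPM after TMM scaling. If strand was not used in counting, overlapping genes on opposite strands share reads. Alternatives were RLE factors, library totals, no filter, DESeq2 1.42.0, limma 3.58.1 on deposited CPM with a pseudocount of 1 or 0.1, a replicate block and leaving out each library. Named genes were the 10, up to 3 most abundant of each of 14 marker lists, and Ptprc, Hba-a1, Hbb-bs, Pdgfra, Tek and Cebpe. Members and lists were chosen with earlier results of these data known. The erythroid gene Ahsp was not analysed here.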

Additional observations from a re-analysis of the deposited data

Results flagged for a closer look

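The 10 granule genes, all genes that the naming rule covers, the sums of the 14 lists and the stage sums and shares were screened for 1 FAPi library standing apart, meaning that its distance to the closest of the other 3, over the whole range of the group, passed Dixon's 95% critical value. Of 81 values screened 12 passed, where chance gives about 1 in 20, or 4.05, and genes of the same library are not independent. The summed level of the 10 granule genes was 264 CPM per kb in FAPi replicate 4, below 807 to 875 in the other 3 (ratio 0.889). In FAPi replicate 2, Pglyrp1 had 18.2 CPM, while the other FAPi libraries had 0.879 to 1.40 (ratio 0.970). Lyz2 reached 141 CPM in FAPi replicate 4, against 93.05 to 99.0 in the rest of the group (ratio 0.877). The library lowest in the summed level of the 10 granule genes was thus the highest FAPi library in lysozyme. FAPi replicate 1 stood apart in Mcpt8 with 102 CPM (ratio 0.957), in Vpreb3 with 134 CPM (ratio 0.927) and in Ighm, the immunoglobulin heavy chain gene of B cells, with 101 CPM (ratio 0.925). The same library had 4.77 CPM of the mast cell gene Cpa3, above 0.646 to 1.05 in the other 3 (ratio 0.902), and 340.3 CPM of Kdr, above 6.06 to 15.5 (ratio 0.972), which took the endothelial sum to 358.1 CPM against 21.3 to 47.2 (ratio 0.923). FAPi replicate 4 had 33.4 CPM of Kit, a receptor of mast cells and progenitors, above 7.62 to 8.91 in the other 3, and 13.8 CPM of the macrophage gene C1qa, above 0.251 to 2.33 (ratio 0.847). Ebf1 was lowest in FAPi replicate 3, at 713 CPM, below 861.5 to 883.5 (ratio 0.871). With 3 libraries, the DPBS group was too small for this screen.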

How the results depend on the processing

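Lower estimates for 9 of the 10 granule genes were kept under other scalings, tests and filters, and leaving out 1 library gave 8 to 9, with Mpo untested without FAPi replicate 1. With library totals alone the median of all genes was -0.16 and 60.0% of them had a lower estimate, against 0.01 and 49.4% with TMM. The count of 0 granule genes called became 3 with DESeq2 (0 without DPBS replicate 2) and stayed 0 when 1 library was left out of the edgeR fit. Calls over all genes, 0 in each direction by edgeR with 1053 genes at an unadjusted p under 0.05, numbered 81 higher and 49 lower with DESeq2 (412 adjusted p-values NA), 60 and 51 with DESeq2 without DPBS replicate 2, 5 and 1 with no filter, 2 higher with limma at either pseudocount, and 3 lower with DPBS replicate 3 as the only control. With single libraries left out they ranged from 0 to 2 higher and from 0 to 1 lower, and all arose when DPBS replicate 3 was left out. Only DPBS replicate 3 as sole control reversed estimates, to 2.53 for Mpo, 2.17 for Elane and 0.73 for Camp. The primary granule share of the summed level became 2.69% in FAPi and 1.05% in DPBS mice without division by length, and ranged from 0.991 to 1.58% and from 0.346 to 0.7405% with a library left out. Samples with the same number did not deviate together (correlations -0.000544, -0.0157 and -0.0492), and the main fit did not pair them. These correlations cannot show whether samples with the same number were handled together. The replicate block gave 0 granule genes and 0 genes called, 718 at an unadjusted p under 0.05. Counts of 2 to 6 limit Mpo and Mmp8 in several libraries, and counts of 7 to 10 limit Elane in FAPi replicates 2 and 4 and DPBS replicate 3.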
